A study of Mus musculus with 16 samples.

Results

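The immunoglobulin genes examined here are the constant-region genes of the antibody heavy and light chains and the variable segments of the heavy (Ighv), kappa (Igkv) and lambda (Iglv) loci. They were chosen by name from a table of 43346 gene rows and selected on raw counts that summed to 20 or more over all 16 libraries. The name pattern matched 290 rows, of which 184 held any count and 106 held none, and 52 rows passed the minimum. One segment, Igkv19-93, stood in the table as a repeated overlapping row with identical counts and was counted once, which left 51 genes. These were all 8 matching constant-region genes (Igkc, Iglc2, Ighm, Igha, Ighg1, Ighg2b, Ighg2c and Ighg3), 17 of 174 Ighv rows, 23 of 105 Igkv rows and all 3 Iglv rows. The summed counts chose the members, so the sums themselves are given as a description. Just inside the minimum lay Ighv4-1, Igkv1-135 and Igkv17-121, each with 20 counts, and just outside it Ighv1-80, Igkv8-30 and Igkv10-94, each with 19.

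RNA came from the cords of female adults, 12 weeks old (strain C57BL7J as spelled in the labels), with 4 libraries in each of 4 groups. All groups but 1 came from cords injured by contusion and compression of the lumbar cord (L1/L3) with an 8 g Fejota clip and collected on day 30: the 3 mm holding the injury (epicenter), the 3 mm caudal to it (below) and the 3 mm rostral to it (above). The fourth group was uninjured cord, for which 9 mm of tissue between T11 and S1 went into 1 preparation, so it pools levels that the injured cord gives apart. The library descriptions mark all groups as WT, no transgene or drug is named for any group, and nothing in the labels ties a library to an animal of its own, so p-values measure the spread between these libraries, which may be technical. Total counts ran from 65627900 to 90004371 per library.

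An antibody is built of heavy chains and kappa or lambda light chains. Each B cell joins 1 variable segment to its neighbors in the heavy locus and 1 in a light locus, and its descendants keep that choice, so the mixture of segments in a tissue reflects the mixture of clones. B cells start with the mu heavy chain (IgM) and can switch to gamma (IgG) or alpha (IgA) chains; plasma cells, their secreting progeny, hold very large amounts of antibody RNA, and healthy spinal cord holds few cells of either kind.

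Some of the segments that led single libraries are given as the first 300 bases of their coding sequences, 5′ to 3′. The sequences were read from the GENCODE M21 transcripts of GRCm38, the assembly behind mm10. The segments were chosen after their counts were seen, with Iglv1 added as the close relative of Iglv2. Iglv1 itself led the Iglv counts of some libraries, among them epicenter 2. Capitals mark bases that lie in a 50-base stretch also present in a transcript of another gene, and lower case marks bases that lie in no such stretch. Their rows in the table lie at chr6:70074024-70074584 (Igkv6-32), chr12:115507545-115507977 (Ighv1-64), chr12:115294062-115294504 (Ighv8-8), chr6:69438218-69438741 (Igkv4-59), chr16:19260401-19260844 (Iglv2) and chr16:19085017-19085460 (Iglv1) in mm10, all on the minus strand.
Igkv6-32: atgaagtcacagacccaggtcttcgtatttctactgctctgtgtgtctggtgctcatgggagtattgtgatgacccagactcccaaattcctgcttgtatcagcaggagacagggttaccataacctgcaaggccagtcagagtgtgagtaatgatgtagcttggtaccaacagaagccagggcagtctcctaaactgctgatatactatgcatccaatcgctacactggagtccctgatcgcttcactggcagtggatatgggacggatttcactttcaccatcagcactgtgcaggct
Ighv1-64: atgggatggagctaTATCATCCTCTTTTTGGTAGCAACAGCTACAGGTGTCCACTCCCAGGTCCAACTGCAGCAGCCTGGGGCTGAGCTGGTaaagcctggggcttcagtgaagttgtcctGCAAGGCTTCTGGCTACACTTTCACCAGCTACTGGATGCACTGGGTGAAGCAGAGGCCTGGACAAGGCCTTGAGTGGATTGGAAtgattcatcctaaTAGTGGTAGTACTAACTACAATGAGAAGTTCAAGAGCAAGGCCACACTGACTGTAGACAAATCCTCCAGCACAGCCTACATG
Ighv8-8: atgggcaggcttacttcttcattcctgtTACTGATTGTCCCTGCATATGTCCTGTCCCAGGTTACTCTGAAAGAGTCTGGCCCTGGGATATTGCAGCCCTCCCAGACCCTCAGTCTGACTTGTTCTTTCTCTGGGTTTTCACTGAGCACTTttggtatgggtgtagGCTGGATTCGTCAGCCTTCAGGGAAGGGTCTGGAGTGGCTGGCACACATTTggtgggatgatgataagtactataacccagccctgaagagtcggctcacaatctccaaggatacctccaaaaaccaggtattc
Igkv4-59: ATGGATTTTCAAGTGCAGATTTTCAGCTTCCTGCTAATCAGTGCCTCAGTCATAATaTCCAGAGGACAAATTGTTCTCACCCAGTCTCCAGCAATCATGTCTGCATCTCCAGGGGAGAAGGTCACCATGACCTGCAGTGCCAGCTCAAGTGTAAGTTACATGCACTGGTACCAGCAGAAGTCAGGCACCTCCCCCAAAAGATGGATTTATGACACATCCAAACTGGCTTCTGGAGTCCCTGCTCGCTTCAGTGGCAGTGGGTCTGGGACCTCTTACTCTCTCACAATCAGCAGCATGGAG
Iglv2: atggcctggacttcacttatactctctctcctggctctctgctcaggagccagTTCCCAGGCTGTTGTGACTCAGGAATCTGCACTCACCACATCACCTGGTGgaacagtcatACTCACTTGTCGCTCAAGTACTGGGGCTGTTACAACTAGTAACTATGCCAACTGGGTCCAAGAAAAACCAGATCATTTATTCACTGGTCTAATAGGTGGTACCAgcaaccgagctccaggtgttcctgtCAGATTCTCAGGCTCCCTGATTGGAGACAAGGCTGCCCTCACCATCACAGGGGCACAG
Iglv1: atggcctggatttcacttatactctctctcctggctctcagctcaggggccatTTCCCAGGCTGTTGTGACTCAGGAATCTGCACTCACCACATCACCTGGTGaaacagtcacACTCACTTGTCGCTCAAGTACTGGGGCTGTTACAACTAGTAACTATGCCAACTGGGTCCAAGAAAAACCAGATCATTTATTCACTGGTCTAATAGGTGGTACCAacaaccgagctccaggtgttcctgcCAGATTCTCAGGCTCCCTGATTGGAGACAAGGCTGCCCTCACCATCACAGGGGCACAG

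Igkv6-32 held no stretch shared with another gene, so 100% of its 50-base stretches were its own. That share was 74.8% for Iglv2 and for Iglv1, which were 96.9% identical to each other over their length, 75.4% for Ighv8-8 and 60.6% for Ighv1-64. Igkv4-59 was the least distinct, with 27.1% of its stretches its own and 26 other genes holding the rest. Over the 43 variable-segment members the median was 71.9%, 6 members had no shared stretch, and 6 had under 50% of their own. How reads that match several places were counted is not given in the sources used here, so counts of the segments in capitals may be split with or lost to their relatives.

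Some libraries stood apart from their group before any antibody gene was considered. Levels are given in CPM, the counts of a gene scaled to the same library total. The summed level of 10 meningeal marker genes was 207 CPM in above 1 and 24.3 to 29.7 CPM in the other above libraries. Summed levels of 10 spinal cord genes were 27140 CPM in below 3 and 18780 to 18980 CPM in the other below libraries, a sum to which Gfap and Mbp contributed much. Neuronal genes of the same list were low in below 3: Snap25 had 18635 counts there and 99887 to 157550 in the other below libraries, and Rbfox3 had 1314 and 7016 to 12050. At the epicenter 6 of the 10 spinal cord genes fell and 1 rose relative to uninjured cord. In that comparison 61.3% of all rows had an edgeR adjusted p under 0.05. Results that rest on above 1 or below 3 are also given without them. In the whole table, a value of exactly 2 counts was commoner than a value of exactly 1 in 16 of 16 libraries (23810 and 20247 values), so counts are not independent molecules. Intervals printed for shares are 95% Wilson intervals and cover counting error only.

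**Figure D1:**
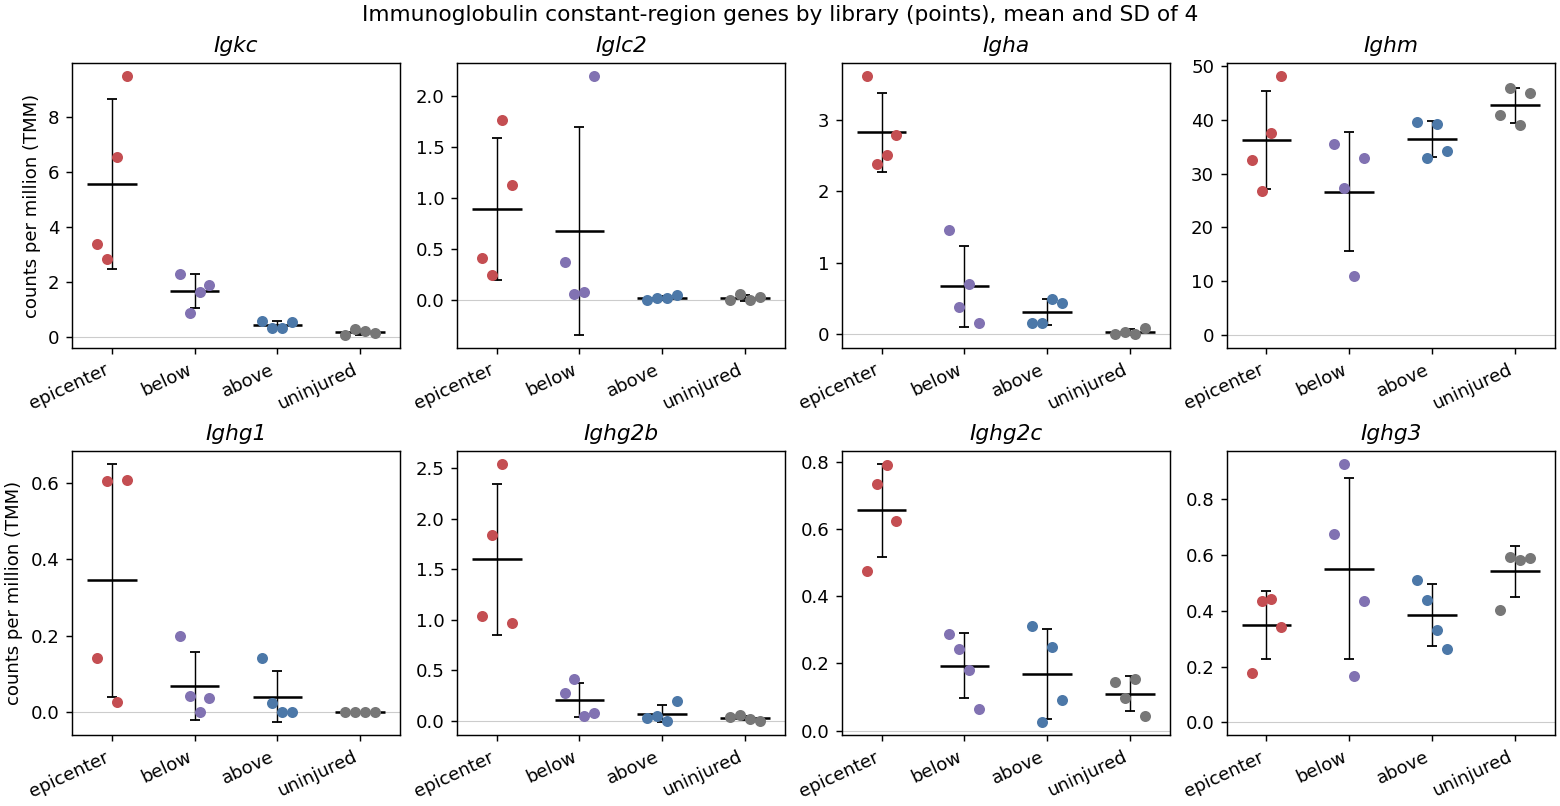
Level of each constant-region gene (y axis, TMM-scaled CPM, linear, a scale of its own per gene) in the 4 libraries of each group (points), with the group mean (bar) and SD (whisker, which may pass below 0). Igkc, Igha, Ighg2b and Ighg2c have all 4 epicenter libraries above all 4 uninjured libraries, while Ighm lies between 10.9 and 48.2 CPM throughout.

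At the epicenter, antibody genes of the light chains and of switched heavy chains were far more abundant than in uninjured cord, whereas the IgM heavy chain and the IgG3 heavy chain did not pass the test. Of the members, 9 had enough counts to be tested across the whole table (all 8 constant-region genes and Iglv2, among 23769 rows), and 7 of the 9 rose at the epicenter with edgeR's adjusted p under 0.05. In the same comparison 61.3% of all rows were called in either direction and 31.9% were called higher. The members that passed the filter on low counts did so largely through the groups in which they were high, so this count is a description. In whole-tissue RNA, more cells of a kind and more RNA per cell cannot be told apart.

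Igkc, the kappa light-chain constant region (mm10 chromosome 6, 70726435 to 70726757), had 283, 214, 487 and 639 counts in the epicenter libraries, against 4, 19, 15 and 9 counts in the uninjured libraries. It averaged 5.55 ± 3.09 CPM at the epicenter and 0.162 ± 0.0848 CPM in uninjured cord (SD, n = 4 each). Every epicenter library exceeded every uninjured one by a wide margin, and the log2 fold change was 5.06 ± 0.49 (SE, edgeR adjusted p = 1.11e-06). Iglc2, a lambda light-chain constant region, had 35, 19, 132 and 76 counts at the epicenter, against 0, 4, 0 and 2 counts in uninjured cord. Its epicenter libraries spread widely but stayed above all uninjured ones, with a log2 fold change of 5.28 ± 1.30 (edgeR adjusted p = 0.00266).

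Igha, the constant region of IgA, the antibody class of mucosal secretions, had 303, 181, 187 and 188 counts in epicenter libraries, against 0, 2, 0 and 6 counts in uninjured libraries. The epicenter libraries were close to each other, at 2.82 ± 0.554 CPM, and the uninjured ones averaged 0.0284 ± 0.0406 CPM (SD, n = 4 each). The log2 fold change of Igha was 6.56 ± 0.80 (edgeR adjusted p = 7.61e-06).

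Of the IgG genes, Ighg2b had 87, 140, 190 and 65 counts at the epicenter, against 2, 4, 1 and 0 counts in uninjured cord. The 2 groups did not overlap, and Ighg2b rose by 5.92 ± 0.88 on the log2 scale (edgeR adjusted p = 4.53e-05). Ighg2c had 40, 56, 59 and 42 counts in epicenter libraries, against 9, 7, 12 and 3 counts in uninjured libraries, again with no overlap, and rose by 2.56 ± 0.56 (edgeR adjusted p = 0.00108). Ighg1, the class typical of help by type 2 cytokines in the mouse, had 12, 46, 2 and 41 counts at the epicenter and 0 counts in all 4 uninjured libraries. Epicenter 3 was near the floor, and the group as a whole, with 101 counts, was at least 31.4-fold higher than uninjured cord when the floor of 3 counts over the uninjured group is used (edgeR adjusted p = 0.0057). That floor holds for independent counts, and the bounds are lower where counts come in pairs. Iglv2 also had no uninjured count, with 20, 1, 22 and 33 counts at the epicenter, at least 23.6-fold higher by the same floor (edgeR adjusted p = 0.0434). That call was lost without any of 11 single libraries, at edgeR adjusted p up to 0.0871 without epicenter 4: each uninjured library, each above library, and epicenter 1, 3 and 4.

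Ighm, the IgM heavy chain, and Ighg3 did not rise at the epicenter, unlike the other constant regions. Ighm had 2737, 2038, 2802 and 3244 counts in epicenter libraries, against 2532, 3326, 3022 and 3138 counts in uninjured libraries. The groups overlapped, at 36.3 ± 9.07 CPM at the epicenter and 42.7 ± 3.29 CPM in uninjured cord (SD, n = 4 each), and the log2 fold change of -0.24 ± 0.26 did not pass (edgeR adjusted p = 0.447). Ighg3 had 15, 33, 33 and 23 counts at the epicenter, against 25, 43, 45 and 41 counts in uninjured cord, overlapping groups with a log2 fold change of -0.64 ± 0.41 (edgeR adjusted p = 0.190). In uninjured cord the counts of Ighm exceeded those of Igkc 175- to 633-fold, and at the epicenter 5.08- to 9.67-fold, both without correction for length. Ighd, the IgD constant region that lies next to Ighm and is outside the name pattern, had 79, 52, 88 and 70 counts at the epicenter, against 34, 43, 40 and 38 counts in uninjured cord, and rose by 0.80 ± 0.25 (edgeR adjusted p = 0.0124).

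Per kilobase of the length that the table gives, Ighm stood at 19.2 CPM and Igkc at 17.2 CPM on average at the epicenter. The next levels there were 1.47 for Iglc2, 1.06 for Igha, 0.596 for Ighg2b, 0.495 for Ighg2c, 0.323 for Ighg3 and 0.133 for Ighg1, all as mean CPM per kilobase. In uninjured cord the mean per kilobase was 22.6 CPM for Ighm, 0.502 for Igkc, 0.50 for Ighg3, 0.0829 for Ighg2c, 0.0346 for Iglc2, 0.0106 for Igha, 0.00937 for Ighg2b and 0 for Ighg1. The order therefore differed between the groups below Ighm: in uninjured cord Igkc and Ighg3 were level, and at the epicenter Igkc stood apart from every switched heavy chain.

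Below the injury the pattern was similar in kind and smaller, and it varied more between libraries. Of the 9 tested members 5 rose below the injury against uninjured cord, where 39.3% of all rows were called and 23.6% were called higher. Igkc had 182, 80, 136 and 148 counts below the injury, against 4, 19, 15 and 9 counts in uninjured cord, and rose by 3.31 ± 0.48 on the log2 scale (edgeR adjusted p = 9.18e-05). Igha had 116, 36, 58 and 12 counts below, against 0, 2, 0 and 6 counts in uninjured cord, and rose by 4.48 ± 0.84 (edgeR adjusted p = 7.75e-04). Neither gene had overlapping groups. Below 4 was the lowest of the below libraries in Igha.

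Iglc2 below the injury rested on a single library. It had 30, 6, 7 and 172 counts in below libraries, against 0, 4, 0 and 2 counts in uninjured libraries. With all libraries it rose by 4.88 ± 1.31 (edgeR adjusted p = 0.00918), and without below 4 the log2 fold change was 2.92 and the call was lost (edgeR adjusted p = 0.0515). Iglv2 had 9, 0, 0 and 127 counts below the injury and 0 counts in every uninjured library (edgeR adjusted p = 0.0332), a call that was lost without below 4 (edgeR adjusted p = 0.195), without above 1 (edgeR adjusted p = 0.0593) and without any uninjured library (edgeR adjusted p = 0.0609 to 0.0635). Ighg2b had 22, 39, 4 and 6 counts below, against 2, 4, 1 and 0 counts in uninjured cord, and rose by 2.97 ± 1.00 (edgeR adjusted p = 0.0284). The Ighg2b call was lost without uninjured 1, 3 or 4 or below 1 or 2, at edgeR adjusted p = 0.0543 to 0.0811.

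The other constant regions did not pass below the injury. Ighg1 had 16, 4, 0 and 3 counts below and 0 counts in uninjured cord (edgeR adjusted p = 0.108), and without above 1 and below 3 together it passed (edgeR adjusted p = 0.0428). Ighg2c had 23, 23, 15 and 5 counts below, against 9, 7, 12 and 3 counts in uninjured cord (edgeR adjusted p = 0.287). Ighg3 ranged most widely, with 54, 88, 14 and 34 counts below, against 25, 43, 45 and 41 counts in uninjured cord (edgeR adjusted p = 0.963).

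Ighm had 2839, 2588, 916 and 2570 counts below the injury, against 2532, 3326, 3022 and 3138 counts in uninjured cord. On the CPM scale all 4 below libraries lay under all 4 uninjured ones, and below 3, at 10.9 CPM, lay far under the other 3 below libraries, which averaged 31.9 ± 4.23 CPM. Below 3 was also the library with low Snap25 and Rbfox3, whose part in its Ighm level was not tested. The log2 fold change of -0.68 ± 0.26 just missed the threshold (edgeR adjusted p = 0.0502). Without below 3 it was smaller, -0.42, and passed (edgeR adjusted p = 0.0393), and it also passed without below 1 (-0.85, edgeR adjusted p = 0.0276), below 4 (-0.80, edgeR adjusted p = 0.0452) or epicenter 4 (-0.68, edgeR adjusted p = 0.0469). It passed as lower in some other fits of all libraries, with the replicate block (-0.73, edgeR adjusted p = 0.0426) and with DESeq2 (-0.68, adjusted p = 0.0317). It also passed with other size factors (edgeR adjusted p = 0.0476) and without the filter (-0.71, edgeR adjusted p = 0.0457). Without above 1 and below 3 together it passed too (-0.42, edgeR adjusted p = 0.0396). Of the alternatives, 9 passed and 14 did not, at edgeR adjusted p up to 0.134.

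Above the injury, 1 of the 9 tested members, Igha, rose against uninjured cord, where 3.54% of all rows were called and 3.09% were called higher. Igha had 11, 13, 43 and 38 counts above, against 0, 2, 0 and 6 counts in uninjured cord, so the groups did not overlap, and the log2 fold change was 3.39 ± 0.89 (edgeR adjusted p = 0.0492). The Igha call was lost without any above or epicenter library and without uninjured 1, 2 or 3, at edgeR adjusted p = 0.0523 to 0.154, and it held without above 1 and below 3 together (edgeR adjusted p = 0.0275). Igkc had 41, 27, 28 and 46 counts above, against 4, 19, 15 and 9 counts in uninjured cord, with no overlap and a log2 fold change of 1.39 ± 0.51 (edgeR adjusted p = 0.187). Igkc passed with DESeq2 (adjusted p = 0.0407) and in a fit of the 8 libraries compared (edgeR adjusted p = 0.0251). Iglc2 had at most 4 counts in any above library, and Ighg2b, Ighg2c and Ighg1 stood at 0 to 22 counts per above library. Ighm averaged 36.5 ± 3.38 CPM above and 42.7 ± 3.29 CPM in uninjured cord (SD, n = 4 each), with edgeR adjusted p = 0.763.

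Between the injured segments, 6 of the 9 tested members rose at the epicenter relative to the segment above, where 52.7% of all rows were called and 28.3% were called higher. The log2 fold changes were 3.17 for Igha, 4.49 for Ighg2b, 1.96 for Ighg2c, 3.66 for Igkc, 5.11 for Iglc2 and 3.13 for Ighg1. The Ighg1 call (edgeR adjusted p = 0.0385) was lost without above 2, 3 or 4 or epicenter 2 or 4, at edgeR adjusted p = 0.0898 to 0.0998. Below relative to above, 2 of 9 rose, where 24.4% of all rows were called and 15.2% were called higher: Igkc by 1.92 ± 0.42 (edgeR adjusted p = 0.00568) and Iglc2 by 4.71 ± 1.25 (edgeR adjusted p = 0.0148). The Iglc2 call was lost without below 4 (2.74, edgeR adjusted p = 0.0765), and without above 4 Ighg2b also passed (2.95, edgeR adjusted p = 0.0454). These comparisons share libraries with those against uninjured cord.

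At the epicenter relative to below, 4 of 9 rose, where 21.3% of all rows were called and 11% were called higher. The log2 fold changes were 1.74 ± 0.39 for Igkc (edgeR adjusted p = 0.00879), 2.08 ± 0.54 for Igha (edgeR adjusted p = 0.0161), 2.95 ± 0.65 for Ighg2b (edgeR adjusted p = 0.00822) and 1.75 ± 0.51 for Ighg2c (edgeR adjusted p = 0.0263). In all 4 genes the epicenter libraries lay above all below libraries on the CPM scale. These are the libraries that gave the calls, so the separation adds no support of its own. The share of all rows that separate so is not given here. The Ighg2c call was lost without epicenter 2 or 4 or below 4 (edgeR adjusted p = 0.0587 to 0.0747), and without below 3 Ighg3 passed as lower at the epicenter (-0.97, edgeR adjusted p = 0.0214). Deviations from group means correlated at 0.186 to 0.437 between same-numbered epicenter and below libraries, and at -0.421 to 0.262 between those of different numbers. With the replicate number as a block in the fit of all libraries 4 members rose again (20% of all rows called). In a fit of the epicenter and below libraries alone 0 members passed, with the block (0.234% of all rows called, edgeR adjusted p = 0.0880 for Igkc) and without it (0.134%, edgeR adjusted p = 0.0686 for Igkc).

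**Figure D2:**
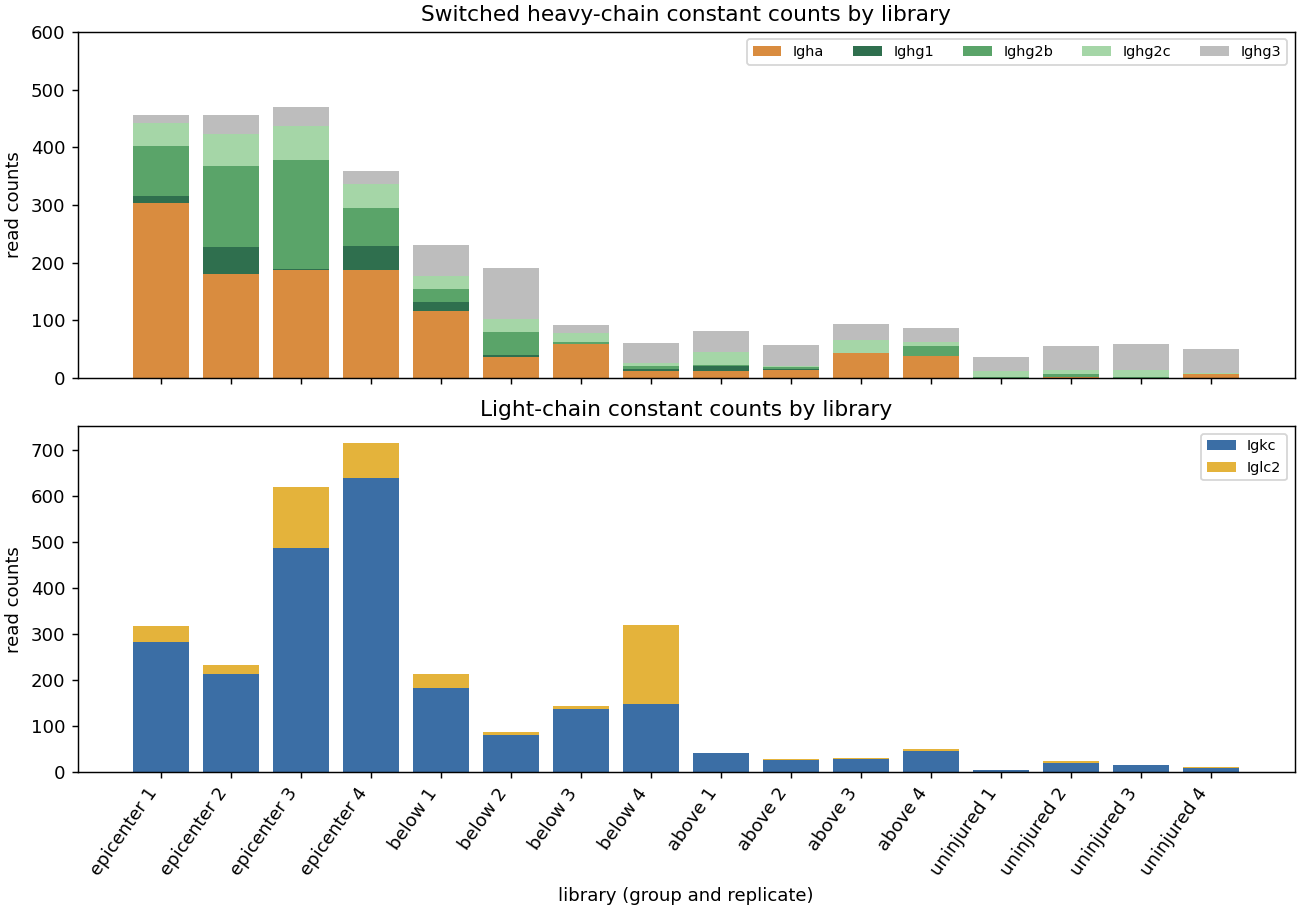
Raw read counts (y axis) per library (x axis) of the switched heavy-chain constant regions, stacked by isotype (top), and of the kappa (Igkc) and lambda (Iglc2) constant regions, stacked (bottom). Epicenter libraries hold 359 to 471 switched heavy-chain counts and uninjured libraries 36 to 58, and below 4 is the library in which Iglc2 (172 counts) exceeds Igkc (148 counts).

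Within each library, isotype shares do not depend on the scaling between libraries; they are shares of raw counts with no correction for length unless stated. Switched heavy chains (IgA and the 4 IgG genes) had 457, 456, 471 and 359 counts in epicenter libraries, 231, 190, 91 and 60 below, 81, 57, 94 and 86 above, and 36, 56, 58 and 50 in uninjured libraries. Igha made up 39.7 to 66.3% of them at the epicenter, 18.9 to 63.7% below, 13.6 to 45.7% above and 0 to 12% in uninjured cord. Ighg3 made up 3.28 to 7.24% at the epicenter, 15.4 to 56.7% below, 26.7 to 63.2% above and 69.4 to 82% in uninjured cord. Uninjured cord thus showed mostly Ighg3 among its few switched counts, and the epicenter mostly Igha and Ighg2b, whose share ran from 18.1 to 40.3%. Per length, Igha was still 32.2 to 58.3% of the switched total at the epicenter and 0 to 5.30% in uninjured cord.

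Ighm made up 85.7, 81.7, 85.6 and 90.04% of all heavy-chain constant counts in epicenter libraries, 92.5, 93.2, 91.0 and 97.7% below, 97.2, 97.9, 97.3 and 97.2% above, and 98.6, 98.3, 98.1 and 98.4% in uninjured libraries. The log2 ratio of Ighm to the summed IgG genes averaged 3.64 ± 0.659 at the epicenter and 5.97 ± 0.208 in uninjured cord (SD, n = 4 each), a difference of -2.33. The log2 ratio of Igha to IgG averaged -0.02 ± 0.751 at the epicenter, -0.81 ± 1.44 below, -1.23 ± 1.15 above and -5.07 ± 1.84 in uninjured cord, with 0.5 added to every count. Each of these 4 differences from uninjured cord, and that of Ighm to IgG between epicenter and above (-2.17), had groups that did not overlap and two-sided exact permutation p = 0.0286, the smallest that 4 against 4 can give. With p-values adjusted over the 15 ratio tests, they stood at an adjusted exact permutation p of 0.0857, so none of the 15 passed.

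The kappa chain made up 89.0, 91.9, 78.7 and 89.4% of the light-chain constant counts in epicenter libraries. Iglc2 was the only lambda constant-region row matched, so lambda counts of any other constant region are left out and kappa shares may be too high. Below the injury its share was 85.8, 93.0 and 95.1% in libraries 1 to 3 and 46.3% in below 4 (148 of 320 counts, 40.9 to 51.7%). Above, it was 92 to 100%, from 29 to 50 light-chain counts, and in uninjured libraries 81.8 to 100%, from 4 to 23 counts. Below 4 was the library with the most Iglc2 in counts and in share of the light-chain constant counts. The ratio of Igkc to Iglc2 could be tested between injured groups, with an adjusted exact permutation p of at least 0.143, and had too few counts for a test in uninjured cord.

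**Figure D3:**
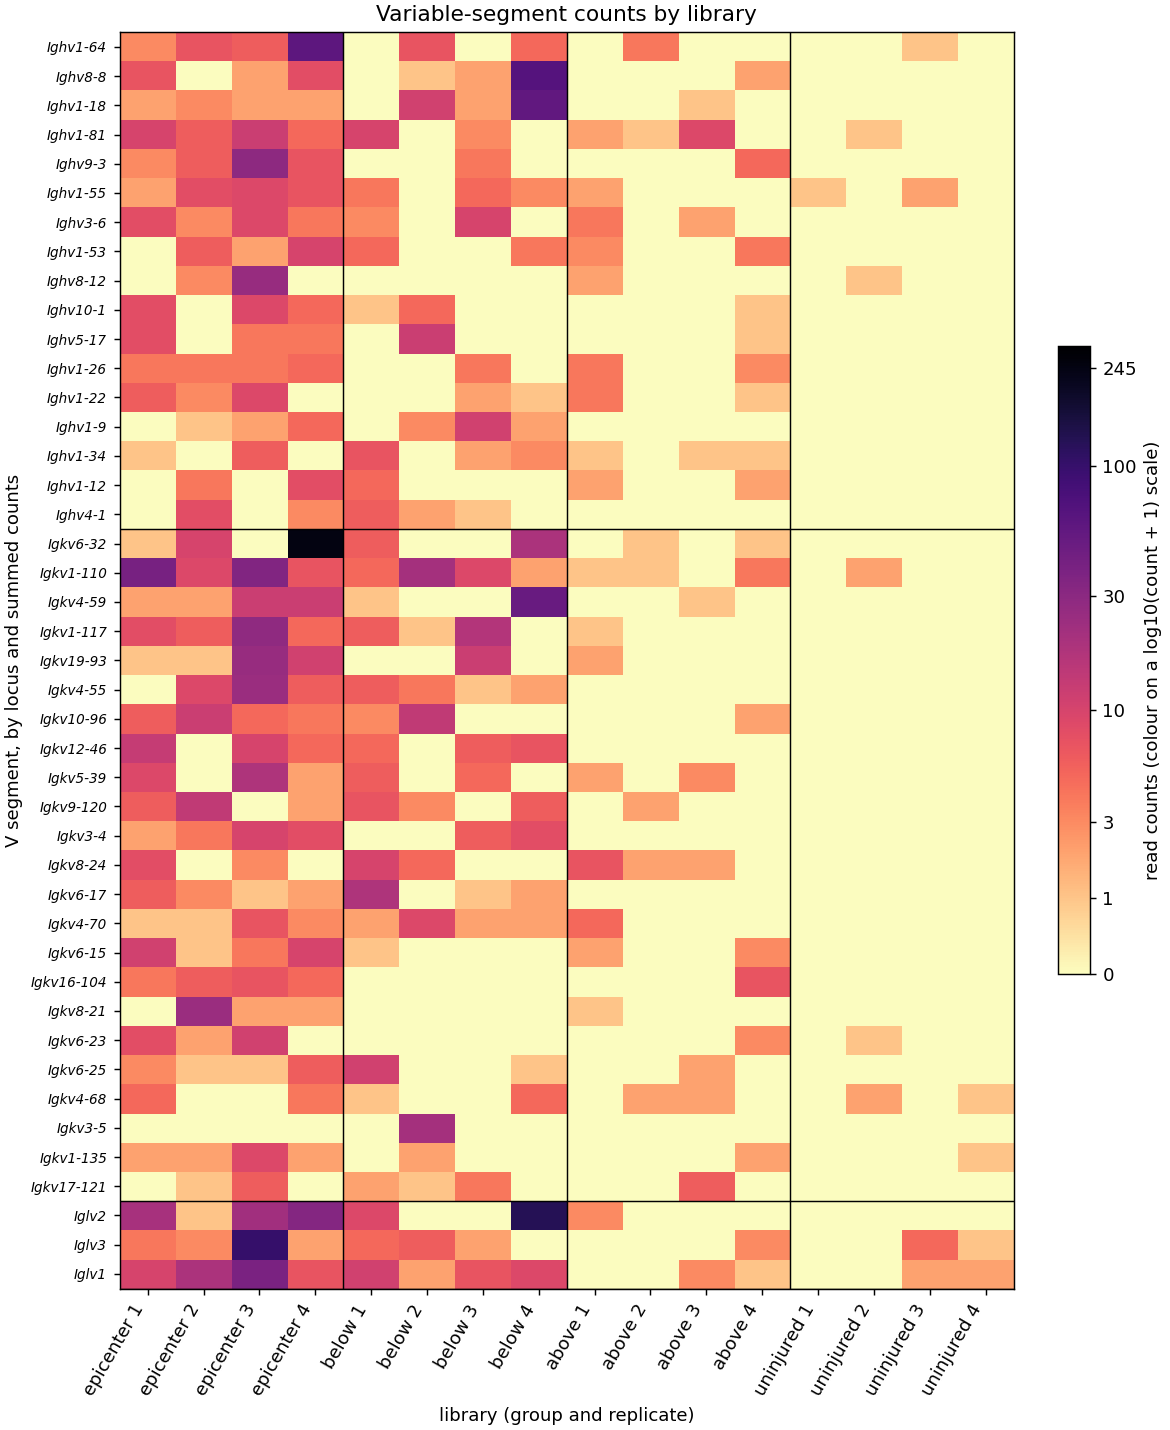
Raw counts of each of the 43 variable-segment members (rows, by locus and by summed counts) in each library (columns, by group), with colour on a log10(count + 1) scale. Counts concentrate in the epicenter and below columns, and single dark cells mark Igkv6-32 in epicenter 4 (245 counts), Iglv2 in below 4 (127 counts) and Iglv3 in epicenter 3 (100 counts).

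Summed together, variable segments had most counts at the epicenter and fewest in uninjured cord, as had every constant region but Ighm and Ighg3. The Ighv members had 385 counts in the 4 epicenter libraries together, 267 below, 62 above and 6 in uninjured cord. The Igkv members had 803 at the epicenter, 338 below, 67 above and 7 in uninjured cord, and the Iglv members 259, 178, 10 and 10 in the same groups. As summed CPM, all 43 together stood at 2.77, 2.53, 6.81 and 7.63 in epicenter libraries, 1.95, 1.37, 1.41 and 4.84 below, 0.678, 0.158, 0.364 and 0.525 above, and 0.0162, 0.0966, 0.129 and 0.0717 in uninjured libraries. Every epicenter, below and above library lay over every uninjured one, and epicenter 3 and 4 and below 4 held the most. Of the 43 segments, 33 had no count in any uninjured library and 31 had a larger sum at the epicenter than in any other group. The segments were chosen by summed counts, most of which came from injured libraries, and that choice favors such patterns. The share of all rows with these patterns is not given here, so nothing is read from the numbers of segments.

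Apart from Iglv2, no variable segment passed the filter on low counts, so none had a test in the main fit. With every row with a count kept, edgeR called 35 of 52 member rows higher at the epicenter than in uninjured cord, and DESeq2 called 31 of the 50 it tested. The background was 40.7% of all rows called in either direction without the filter and 43.1% with DESeq2. The members were admitted by counts that most segments have in injured libraries alone, so nothing is read from their share against that background. These counts include the constant regions, and the 52 rows include both rows of Igkv19-93.

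The same other rules gave fewer member rows in the other comparisons, each given with the share of all rows called in either direction, from which likewise nothing is read. For below against uninjured cord, DESeq2 called 19 (29.2% of all rows), edgeR without the filter 11 (24.7%), a fit of the 8 libraries compared 2 (28.4%) and the fit without above 1 and below 3 together 9 (36.1%). For above against uninjured cord, DESeq2 called 2 (4.16%), the fit of 8 libraries 2 (16.6%) and the fit with the replicate number as a block 0 (3.4%). For epicenter against above, DESeq2 called 15 (37.6%), edgeR without the filter 18 (34.1%) and the fit without above 1 and below 3 together 10 (59.5%). For epicenter against below, edgeR without the filter called 7 (11.7%), and for below against above DESeq2 called 8 (19.8%) and the fit of 8 libraries 1 (7.23%). A member row here may be a constant region or a variable segment.

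The members covered much of their loci. The 17 Ighv members spanned 2062 kilobases of chromosome 12 (113859149 to 115920712), and the 23 Igkv members 3063 kilobases of chromosome 6 (67609745 to 70672377). Of the 17 Ighv members, 10 belonged to the Ighv1 family, with 59.2% of the members' Ighv counts, and this family makes up 49.1% of the Ighv rows of the table. The Igkv6 family had 32.8% of the members' Igkv counts, most of them from Igkv6-32, and 8.65% of the Igkv rows. The members held 63.3% of all Ighv counts in the table (720 of 1138) and 74.5% of all Igkv counts (1215 of 1630), the rest being spread over rows with under 20 counts each.

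How evenly segments were used differed sharply between libraries of 1 group. Evenness was expressed as the inverse Simpson number, the count of equally used segments that would give the same chance of drawing a segment again, for each library with 20 or more counts of a locus. It was computed over the members, the rows with 20 or more summed counts, and so leaves out the many rarer segments. For Igkv it was 8.35, 9.76, 11.7 and 1.92 in epicenter libraries, 11.2, 5.71, 6.85 and 3.63 below, and 6.18 and 6.60 in above 1 and 4. For Ighv it was 10.6, 13.0, 8.72 and 4.60 in epicenter libraries, 7.46, 5.26, 8.02 and 2.63 below, and 11.0 and 9.05 in above 1 and 4. Above 1 and 4 had only 24 and 20 Ighv counts over 9 segments each. Their values exceed the segments seen and cannot be ranked against those of the other groups. Over all matching rows the values were larger: 14.9, 17.9, 20.7 and 2.86 at the epicenter and 20.2, 8.68, 13.5 and 4.58 below for Igkv, and 26.5, 27.2, 17.7 and 10.7 at the epicenter and 26.03, 10.6, 17.8 and 3.22 below for Ighv. In Ighv and Igkv the lowest value of the epicenter group was epicenter 4 and the lowest of the below group was below 4. This held over members and over all rows alike. For Iglv, with 3 members, the number was 2.328, 1.454, 2.162 and 1.565 in epicenter libraries, lowest in epicenter 2. It was 2.97 in below 1 and 1.142 in below 4. No uninjured library held enough counts for a value.

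**Figure D4:**
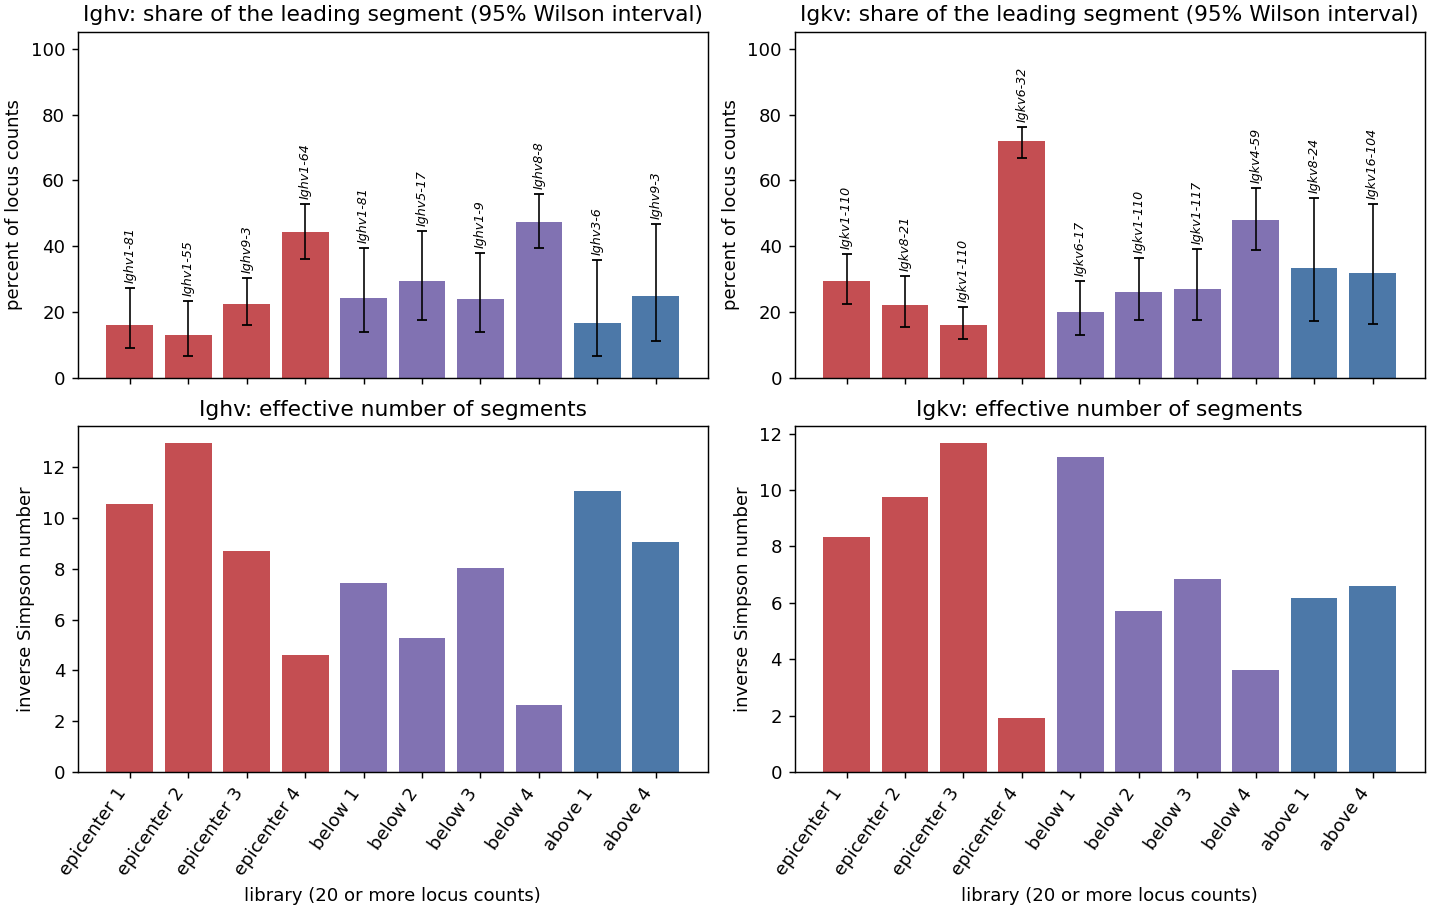
Share of the leading segment (top, percent of the members' counts of the locus, with 95% Wilson interval and the segment's name, 1 name where segments tie) and inverse Simpson number (bottom) for Ighv (left) and Igkv (right), by library with 20 or more counts of the locus. Epicenter 4 and below 4 have the highest leading share and the lowest number of their groups in both loci.

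Epicenter 4 leaned on 1 kappa segment and 1 heavy segment. Shares from here on are of the members' counts of a locus unless all rows are named. Igkv6-32 had 245 of its 341 Igkv member counts, 71.9% (66.9 to 76.4%, or 64.7 to 78.1% with all counts halved to allow for counts that come in pairs), and 58.8% of the 417 counts of all Igkv rows (54.0 to 63.4%). The other epicenter libraries had 1, 10 and 0 counts of Igkv6-32, the below libraries 6, 0, 0 and 19, and the uninjured libraries 0. In the same library Ighv1-64 had 58 of 131 Ighv member counts, 44.3% (36.1 to 52.8%), and 28.2% of the 206 counts of all Ighv rows (22.5 to 34.6%). It had 3, 7 and 6 counts in the other epicenter libraries. Of the lambda segments Iglv2 led in epicenter 4, with 33 of 42 Iglv counts (78.6%, 64.1 to 88.3%). Of 100 Igkv counts drawn from each epicenter library, 14.7 segments would be seen in epicenter 4 and at least 17.3 in the others, so a long tail of other segments was also present in epicenter 4.

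Below 4 leaned on other heavy and kappa segments than epicenter 4, and on the same lambda segment, Iglv2. Its Ighv counts were 66 of Ighv8-8 and 55 of Ighv1-18, together 87.1% of 139 (80.5 to 91.7%), and Ighv8-8 alone was 42.6% of the 155 counts of all Ighv rows. Its leading kappa segment was Igkv4-59, with 50 of 104 Igkv counts (48.1%, 38.7 to 57.6%) and 42.7% of the 117 counts of all Igkv rows, a segment whose counts may be shared with its relatives. Its lambda counts were 127 of Iglv2 and 9 of Iglv1 out of 136, and it is also the library with 172 counts of Iglc2. Igkv6-32, the leading segment of epicenter 4, had 19 of the 104 Igkv counts of below 4 (18.3%, 12.0 to 26.8%), more than in any other library except epicenter 4.

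Epicenter 1 to 3 were more even in Ighv and Igkv, and were led by different segments except that epicenter 1 and 3 shared Igkv1-110. Igkv1-110 led in epicenter 1 (40 of 136 Igkv counts, 29.4%) and in epicenter 3 (35 of 218, 16.1%), and Igkv8-21 led in epicenter 2 (24 of 108, 22.2%) with 5 counts in all other libraries together. The leading heavy segments were Ighv1-81 with 10 of 62 counts in epicenter 1, Ighv1-55 and Ighv4-1, tied with 8 of 62 each, in epicenter 2 and Ighv9-3 with 29 of 130 in epicenter 3. Over all rows Ighv1-5, which is no member, led in epicenter 2 with 9 of 109 counts. In epicenter 3 the lambda locus was led by Iglv3, with 100 of 160 counts (62.5%, 54.8 to 69.6%). Iglv3 had 2 to 4 counts in each other epicenter library. Iglv2 led in epicenter 1 (20 of 34 Iglv counts) and Iglv1 in epicenter 2 (19 of 23).

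Below 1 to 3 and the above libraries rested on fewer counts. Igkv6-17 led in below 1 (18 of 90 Igkv counts), Igkv1-110 and Igkv3-5 tied in below 2 (21 of 81 each) and Igkv1-117 led in below 3 (17 of 63). All 21 counts of Igkv3-5 came from below 2. The leading heavy segments there were Ighv1-81 (10 of 41), Ighv5-17 (12 of 41) and Ighv1-9 (11 of 46). In the above libraries no segment had more than 9 counts, the number of Ighv1-81 in above 3, and the leading kappa segments were Igkv8-24 in above 1, Igkv17-121 in above 3 and Igkv16-104 in above 4, with 6 or 7 counts each. In above 2 no Igkv member had more than 2 counts, and Igkv9-120, Igkv8-24 and Igkv4-68 tied. Ighv1-64 had 4 counts there.

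Across all 16 libraries, 12 of the 43 segments had more than 50% of their counts in 1 library. The share in 1 library was 86.6% for Igkv6-32, 82.8% for Igkv8-21, 80.6% for Ighv8-12, 76.3% for Iglv3, 75% for Ighv8-8 and 70.5% for Ighv1-18. Others were spread: Ighv1-26 had 4, 4, 4 and 5 counts in the epicenter libraries, and Ighv1-81 had 10, 6, 12 and 5. Igkv1-110 had counts in 12 of 16 libraries, including 2 counts in uninjured 2, and in all 8 epicenter and below libraries. Of the 23 Igkv members, 12 had counts in all 4 epicenter libraries, as had 7 of 17 Ighv and all 3 Iglv members, while 3 Igkv, 0 Ighv and 1 Iglv member had counts in all 4 below libraries. The epicenter gave more of the summed counts that chose the members than any other group, so nothing is read from this difference.

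Libraries shared segments to different degrees. The Morisita-Horn overlap, which is 1 for identical segment shares and 0 for none in common, was computed between injured libraries with 100 or more counts of a locus. For Igkv it was highest between epicenter 1 and 3, at 0.697, and lowest between epicenter 3 and 4, at 0.0554. It was 0.381 between epicenter 4 and below 4, which carry the same number in the labels, 0.381 between epicenter 1 and 2 and 0.423 between epicenter 2 and 3, which do not. For Ighv it was 0.180 between epicenter 4 and below 4, 0.286 between epicenter 3 and 4 and 0.0738 between epicenter 3 and below 4. Below 4 overlapped with epicenter 1, 2 and 3 by 0.133, 0.204 and 0.210 for Igkv. The labels do not say that a shared number marks a shared animal.

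Joining segments (J segments), which lie outside the name pattern and are joined to the variable segments, differed between the kappa and the heavy locus. The 5 Igkj rows had 23, 35, 83 and 115 counts in epicenter libraries, 33, 19, 23 and 24 below, 3, 7, 3 and 7 above, and 0, 4, 6 and 0 in uninjured libraries. In epicenter 4, 83 of the 115 were Igkj2, and in below 4, 19 of the 24 were Igkj4. The 4 Ighj rows, next to Ighm, had 46, 36, 92 and 57 counts in epicenter libraries, 45, 45, 21 and 48 below, 20, 19, 33 and 37 above, and 17, 25, 22 and 33 in uninjured libraries. Their sums of 231, 159, 109 and 97 in the same groups spread less than the Ighv sums, which were 6 in uninjured cord.

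Some genes of B cells and plasma cells rose at the epicenter, as did markers of other tissues, whose part in the antibody counts was not tested. Of all rows, 61.3% were called in either direction at the epicenter relative to uninjured cord and 31.9% were called higher. Of 12 B cell genes 7 rose and 2 fell there, and of 12 plasma cell genes 9 rose and none fell. Their summed levels were 57.4 to 70.7 CPM at the epicenter and 60.4 to 64.6 CPM in uninjured cord for the B cell list, and 132 to 146 CPM and 50.2 to 55.9 CPM for the plasma cell list. The sums were led by genes that other cells of the cord also express: Ebf1, which fell by 0.77 ± 0.22 on the log2 scale (edgeR adjusted p = 0.00689), and Cd22, which rose by 5.58 ± 0.50 (edgeR adjusted p = 6.99e-07), in the B cell list, and Xbp1 in the plasma cell list. Cd79a, a signalling chain of the B cell receptor, had 141, 87, 170 and 130 counts at the epicenter, against 6, 17, 21 and 19 counts in uninjured cord, and rose by 2.98 ± 0.35 (edgeR adjusted p = 6.03e-06). Jchain, which links IgA and IgM into polymers, had 120, 74, 175 and 198 counts at the epicenter, against 36, 25, 39 and 31 counts in uninjured cord, and rose by 2.03 ± 0.37 (edgeR adjusted p = 2.34e-04). Pax5, the factor that holds B cell identity, did not pass (-0.46 ± 0.39, edgeR adjusted p = 0.318). Tnfrsf17, the plasma cell receptor BCMA, did not pass, with 12, 14, 5 and 15 counts at the epicenter and 2, 4, 11 and 3 counts in uninjured cord (edgeR adjusted p = 0.214).

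Of the other lists, all 12 T cell genes rose at the epicenter (summed levels 12.5 to 15.4 CPM, against 2.28 to 2.75 CPM in uninjured cord), as did all 7 red blood cell genes (587 to 857 CPM, against 52.8 to 106 CPM) and all 10 meningeal genes (1281 to 1698 CPM, against 19.2 to 36.4 CPM). In below libraries, T cell genes summed to 5.85 to 16.1 CPM, red blood cell genes to 255 to 531 CPM and meningeal genes to 317 to 884 CPM. Above, they summed to 3.29 to 4.00, 233 to 298 and 24.3 to 207 CPM. Of 8 tested genes of antibody transport and Fc receptors 7 rose at the epicenter, while Pigr, which carries IgA across epithelia, did not pass (-0.75 ± 0.38, edgeR adjusted p = 0.102). Of 5 tested genes of recombination, class switching and hypermutation 1 rose. In the comparison of epicenter and uninjured cord, 31.9% of all rows were called higher.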

How the data were processed

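RNA was sequenced in 16 mouse spinal cord libraries. Per the labels' protocols, 200 ng of input went into a TruSeq RNA Sample Prep Kit v2 preparation, which does not mark strand. The authors deposited raw counts per gene and library. Per the submitters' processing notes, the tools were TopHat2 2.0.12, Subread 1.4.4 and edgeR, with build mm10, and no source used here gives their settings. The members and the marker lists were chosen with earlier results of these data known. Named segments are the 5 Ighv and 5 Igkv with the most counts, every Iglv, each library's leading segment and those nearest the minimum of 20 counts; segments named beyond these were chosen after their values were seen.

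Rows were filtered with filterByExpr, scaled with TMM factors to CPM and tested in 1 fit of 16 libraries by edgeR 4.0.16 (R 4.3.3), quasi-likelihood F test, for 6 pairs of groups, adjusted by the Benjamini-Hochberg method over 23769 rows; a gene is called at an adjusted p under 0.05. Errors of log2 fold changes are SE. The procedure was tested on simulated data. DESeq2 1.42.0, other scalings, no filter, a replicate block and leaving out each library were tried as alternatives. A floor of 3 counts is the most that a count of 0 allows if counts are independent; it equals 0.0316 to 0.0485 CPM per library. Isotype ratios were compared by exact permutation over libraries. Symbols Jchain and Fcmr were matched by gene ID; Iglc4 and Fdcsp were not matched. Whether replicate numbers pair libraries was checked by the correlation of deviations from group means. It was 0.186 to 0.437 for same-numbered epicenter and below libraries and -0.421 to 0.262 for those of different numbers, so the ranges overlap. Every other pair of groups had at least 1 pair of same-numbered libraries under 0.1. Libraries of 1 group differed beyond counting noise, with a chi-square of 6.82 to 711 for each degree of freedom.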

Additional observations from a re-analysis of the deposited data

Results flagged for a closer look

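Single libraries far from the other 3 of their group were found in 16 of 85 group values examined. The measure was the gap to the nearest library over the group's range (Dixon's 95% value). Groups with at most 3 counts in every library were not examined. Chance passes the value in about 1 in 20 groups of normally distributed values, a rate that does not hold for sparse counts. A group with counts in 1 library alone always passes. The segments were also chosen by summed counts, which often came from 1 library, so nothing is read from the number found.

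Of the 16 group values, 4 concerned epicenter 4 or 3. Igkv6-32 stood at 3.64 CPM and Ighv1-64 at 0.861 CPM in epicenter 4, against 0 to 0.131 and 0.0358 to 0.0919 CPM in the other epicenter libraries. Iglv3 stood at 1.34 CPM and Igkv1-117 at 0.375 CPM in epicenter 3, against 0.0297 to 0.0477 and 0.0742 to 0.0954 CPM in the others.

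Below 4 accounted for 6 of them: it was high in Iglc2 (2.20 CPM), Iglv2 (1.62 CPM), Ighv8-8 (0.844 CPM), Ighv1-18 (0.703 CPM), Igkv4-59 (0.639 CPM) and the summed variable segments (4.84 CPM). The other below libraries had at most 0.376, 0.113, 0.0239, 0.116, 0.0125 and 1.95 CPM of the same items in that order. In below 3, Igkv19-93 stood at 0.143 CPM and Ighv9-3 at 0.0478 CPM, and both had no count in the other below libraries. In the above group, Ighv9-3 stood at 0.0571 CPM in above 4 and Ighv1-64 at 0.0487 CPM in above 2, both with no count in the other 3 libraries. The log2 ratio of Igkc to Iglc2 was 6.38 in above 1, which had no count of Iglc2, and 3.37 to 3.51 in the other above libraries. Ighg3 was low in uninjured 1, at 0.404 CPM against 0.580 to 0.593 CPM in the other uninjured libraries.

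Joining segments, which the name pattern leaves out, exceeded their level in uninjured cord: the Igkj rows summed to 256 counts at the epicenter and 99 below, against 10 in uninjured cord, and the Ighj rows to 231 at the epicenter, against 97 in uninjured cord. Per library, the Ighj rows had 36 to 92 counts at the epicenter and 17 to 33 in uninjured cord.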

How the results depend on the processing

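No called result changed direction under the alternatives run. Of 18 isotype ratios, 5 changed sign in at least 1 alternative, and none of the 5 had passed a test: the largest span was -0.62 to 0.85 for Igkc over Iglc2 between epicenter and below, and Igha over IgG between below and above ran from -0.11 to 0.85. DESeq2 called 31 at the epicenter, 2 above and 19 below against uninjured cord, 15 for epicenter against above and 8 for below against above. Without a filter edgeR called 35 at the epicenter and 11 below against uninjured cord, 18 for epicenter against above and 7 for epicenter against below. A fit of only the 8 libraries compared called 2 above and 2 below against uninjured cord, 0 for epicenter against below and 1 for below against above; epicenter and below libraries with a replicate block, chosen after seeing the data, called 0. Without above 1 and below 3 together, 9 were called for below against uninjured cord and 10 for epicenter against above. With the replicate block in all libraries, Igha above against uninjured cord was lost (0 called), and the block changed no other count by over 1.5 times. The replicate numbers are not known to pair libraries of any groups. Leaving out 1 library gave 7 to 11 called at the epicenter, 0 to 1 above and 3 to 8 below against uninjured cord, 7 to 11 for epicenter against above, 3 to 5 for epicenter against below and 2 to 5 for below against above, out of 10 to 15 members tested. Against uninjured cord, the share of all rows then called ran from 55.9 to 65.8% at the epicenter and 1.69 to 9.56% above. Below the injury it ran from 30.7 to 46.2%. For epicenter against above it was 44.8 to 59.6%, for epicenter against below 9.69 to 46.0% and for below against above 14.9 to 34.3%. For single genes, 1159 values kept their side of the threshold, 53 lost a call and 24 gained one.

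Evenness depended on which rows counted. Over all matching rows the median inverse Simpson number was 22.1 (epicenter) and 14.2 (below) for Ighv. For Igkv it was 16.4 (epicenter) and 11.1 (below). Over rows with 100 or more counts it was 1.05 (epicenter) and 1.11 (below) for Igkv, and no Ighv row had as many. Those Igkv rows were Igkv6-32 and Igkv1-110 alone, so these medians cannot show evenness across segments. They rest on epicenter 1, 3 and 4 and on below 2 and 4. Leaving out 1 library gave medians of 8.72 to 10.6 (epicenter) and 5.26 to 7.46 (below) for Ighv, and 8.35 to 9.76 (epicenter) and 5.71 to 6.85 (below) for Igkv. Low counts limit every statement on single segments.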
